A study of Mus musculus with 24 samples.

Results

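A set of 10 genes tied to the self-renewal of blood stem cells were followed in mouse fetal liver cells in which the microRNA miR-125b was induced beside an edited Gata1 gene. They were Hoxa7, Hoxa9, Hoxa10, Meis1, Hlf, Mecom, Mycn, Bmi1, Kit and Cd34. They were chosen by name, with earlier results of these data known, and were found among the 47069 Ensembl gene identifiers of the count table through the GENCODE M21 annotation. All 10 were listed there, and 5 had enough reads to be tested.

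The cells came from embryos at day E12.5 to E13.5 of a B6J.129(Cg) strain, Fezh/J, in which the CAG promoter drives Cas9 and EGFP from the Rosa26 locus. Every group, controls included, carried sgGata1 as its first transgene, which guides Cas9 to Gata1, and the cells are labelled Gata1s after the short form of that protein. A second transgene was either miR-125b or its control, and both arms received doxycycline at 1 ug/mL. The arms were sampled after 48 h (day 2), on day 10, on day 13 with doxycycline continued, and on day 13 after doxycycline had been withdrawn on day 10. Each of the 8 groups had 3 libraries, 24 in all. No group lacked the Gata1 guide, so an effect of the edit itself could not be measured. The labels do not give the extent of editing, say whether the cells were a pool or a clone, or say whether the libraries of a group came from separate cultures or embryos. P-values therefore measure only the spread between these libraries, which may be technical. Total counts were 14694900 to 23755245 per library. Of the cell type markers examined, megakaryocyte genes summed to 2818 to 7275 CPM (counts scaled to a common library total) per library, while 7 lymphoid markers summed to at most 0.831 CPM and 7 hepatoblast markers to at most 4.88 CPM.

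Hox proteins are DNA-binding factors that set position in the embryo and, in blood, keep immature cells dividing. The posterior Hoxa proteins bind DNA together with TALE homeodomain partners, of which Meis1 is among the best known, and the pairing of Hoxa9 with Meis1 drives many acute leukaemias. Hlf and Mecom are transcription factors characteristic of the most immature stem cells, Mycn encodes a Myc family transcription factor that drives cell growth, and Bmi1 is a subunit of the Polycomb complex PRC1 that silences cell cycle inhibitors. Kit is the receptor for stem cell factor, and Cd34 is a surface glycoprotein of progenitors and of endothelium.

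The microRNA is shown because pairing through its seed is how a microRNA finds most of its targets. The mature mouse sequence in the RefSeq table for GRCm38.p6 is the same from both precursor genes, at chr9:41581940-41581961 (+) and chr16:77646279-77646300 (+). Capitals mark the seed, bases 2 to 8.
miR-125b-5p: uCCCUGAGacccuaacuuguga
The longest annotated 3′ UTR of each of the 10 genes was searched, on the gene's own strand, for the 7 bases complementary to that seed, CTCAGGG. Only Cd34 held a match. Its 3′ UTR, of 1485 bases, has the 7 bases followed by an A at chr1:194960009-194960016 (+, GRCm38), which starts at position 215 of the 3′ UTR. The match is shown in capitals within 30 bases of transcript sequence from GENCODE M21.
Cd34 3′ UTR: gggcctcccctgagaCTCAGGGAaaggcca
Among 20746 genes with an annotated 3′ UTR, 2733 (13.2%) held at least 1 such 7-base match. The match is a description of the sequence and not a measured site.

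Of the 10 genes, 5 were all but unread. Hoxa7, Hoxa9, Hoxa10, Hlf and Mecom were at or near 0 in every library. Hoxa9 (ENSMUSG00000038227, chr6:52223100-52231089, minus strand, GRCm38), the member of the cluster most closely tied to leukaemia, had 0 counts in 24 libraries holding 446008283 counts together. Mecom (ENSMUSG00000027684, chr3:29951296-30548008, minus strand), which encodes the stem cell factor Evi1, also had 0 counts in all 24. A count of 0 allows up to 3 counts, which is 0.126 to 0.204 CPM in single libraries and 0.00673 CPM over all of them. These limits cover counting error only.

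Hoxa10 (ENSMUSG00000000938, chr6:52231197-52240854, minus strand) had 1 count in all, in replicate 2 of the miR-125b arm at day 10. Hoxa7 (ENSMUSG00000038236, chr6:52214491-52221854, minus strand) had 3, of which 1 lay in control replicate 3 at day 10 and 2 lay in miR-125b replicate 3 at day 13. Hoxa7 shares 586 of its 2876 exon bases with the antisense gene Hoxaas3. How reads in shared bases were counted is not given, so such reads may have been dropped or assigned to either gene. The same applies to 85 exon bases that Hoxa9 shares with Mir196b and 81 that Mecom shares with the antisense Mecomos. Hlf (ENSMUSG00000003949, chr11:90336536-90390895, minus strand) had 15 counts spread over 9 libraries and at most 4 in any of them, in control replicate 2 at day 10. Its 12 control libraries held 11 of these counts and its 12 miR-125b libraries held 4. No fold change is given for the 5 genes, because both arms were at or under the limit of 3 counts in nearly every library.

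**Figure D1:**
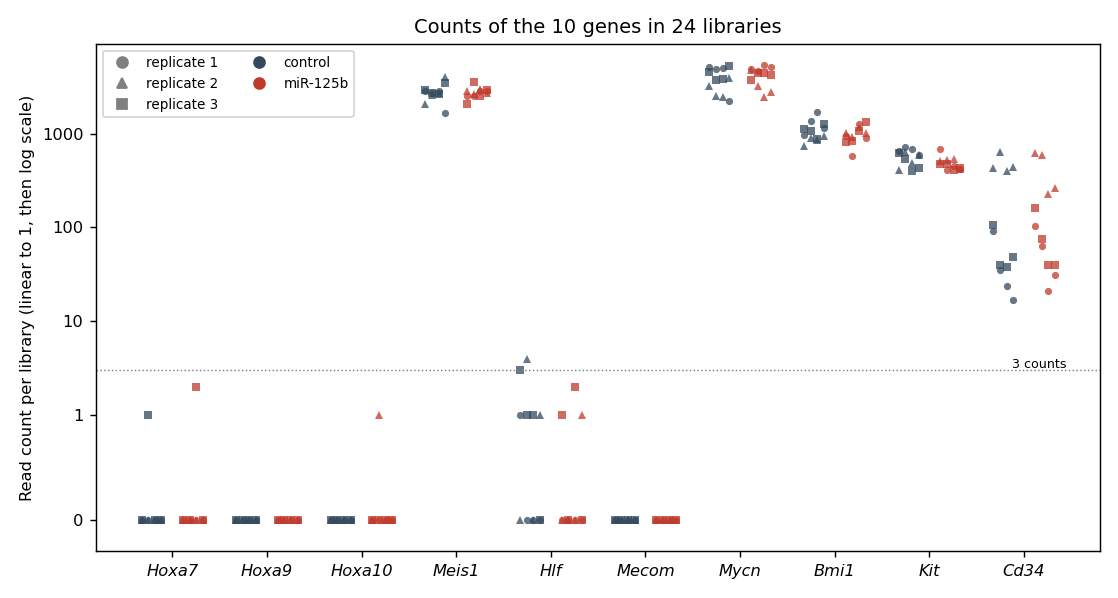
Read counts of the 10 genes in each of the 24 libraries (vertical axis linear up to 1 count, then logarithmic), control libraries in grey and miR-125b libraries in red, with the marker shape giving the replicate number and the days running from left to right within each arm. Hoxa7, Hoxa9, Hoxa10, Hlf and Mecom lie between 0 and 4 counts, while Meis1, Mycn, Bmi1 and Kit lie at 398 counts or more and Cd34 spans 17 to 630.

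The other Hox genes were scarcely read either. Of 30 further Hox genes of the a, b, c and d clusters, 20 had 0 counts in all 24 libraries. Apart from Hoxb4, no other gene of the list passed 5 counts in any library. Hoxb4, a homeobox gene able to expand blood stem cells when forced, had 157 counts in total and 0 to 17 per library, in 23 of 24 libraries, with a median of 0.318 CPM. It was the only one of the 30 that could be tested and was not called in any miR-125b comparison. The Cdx genes Cdx1, Cdx2 and Cdx4, which switch on Hox clusters, were at 0 throughout. The chromatin regulators that hold Hoxa genes open in leukaemia were well expressed: Kmt2a had a median of 83.2 CPM, Men1 of 97.7 CPM and Dot1l of 120.2 CPM. None of the 9 tested genes in the list of Hox locus regulators was called in a miR-125b comparison, with or without a replicate term.

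Meis1, Mycn, Bmi1, Kit and Cd34 were read in all 24 libraries. Levels between genes are compared as CPM per kilobase of exon. Mycn had the highest median, 67.9 CPM per kb, followed by Meis1 with 14.0, Bmi1 with 13.4, Kit with 3.14 and Cd34 with 0.616. Mycn lay above Meis1, and Bmi1 above Kit, in 24 of 24 libraries. Meis1 and Bmi1 were not ordered, since Meis1 was the higher in 14 libraries only. Kit exceeded Cd34 in 19 of 24 libraries. In CPM, which is the scale of all values that follow, Mycn stood at the 93.8th percentile of the 13419 tested genes, Meis1 at the 89.6th, Bmi1 at the 69.9th, Kit at the 53.3rd and Cd34 at the 36.3rd.

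No gene of the 10 was called in any of the 4 comparisons of miR-125b with control. A call is an adjusted p under 0.05 in edgeR's quasi-likelihood test over all 13419 tested genes. The share of all tested genes called was 0% at day 2, 0.872% at day 10, 0% at day 13 and 0.119% at day 13 after withdrawal, so a set of 5 tested genes would hold few calls in any case. At day 2 and day 13, where edgeR called 0 genes, 709 and 388 genes had an unadjusted p under 0.05, and DESeq2 called 3 genes each. With the replicate number added to the model as a block, the shares were 0%, 8.63%, 0.0149% and 1.86%, and again none of the 5 genes was among them. A p above the threshold does not show that the arms were alike, so the intervals are given gene by gene.

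**Figure D2:**
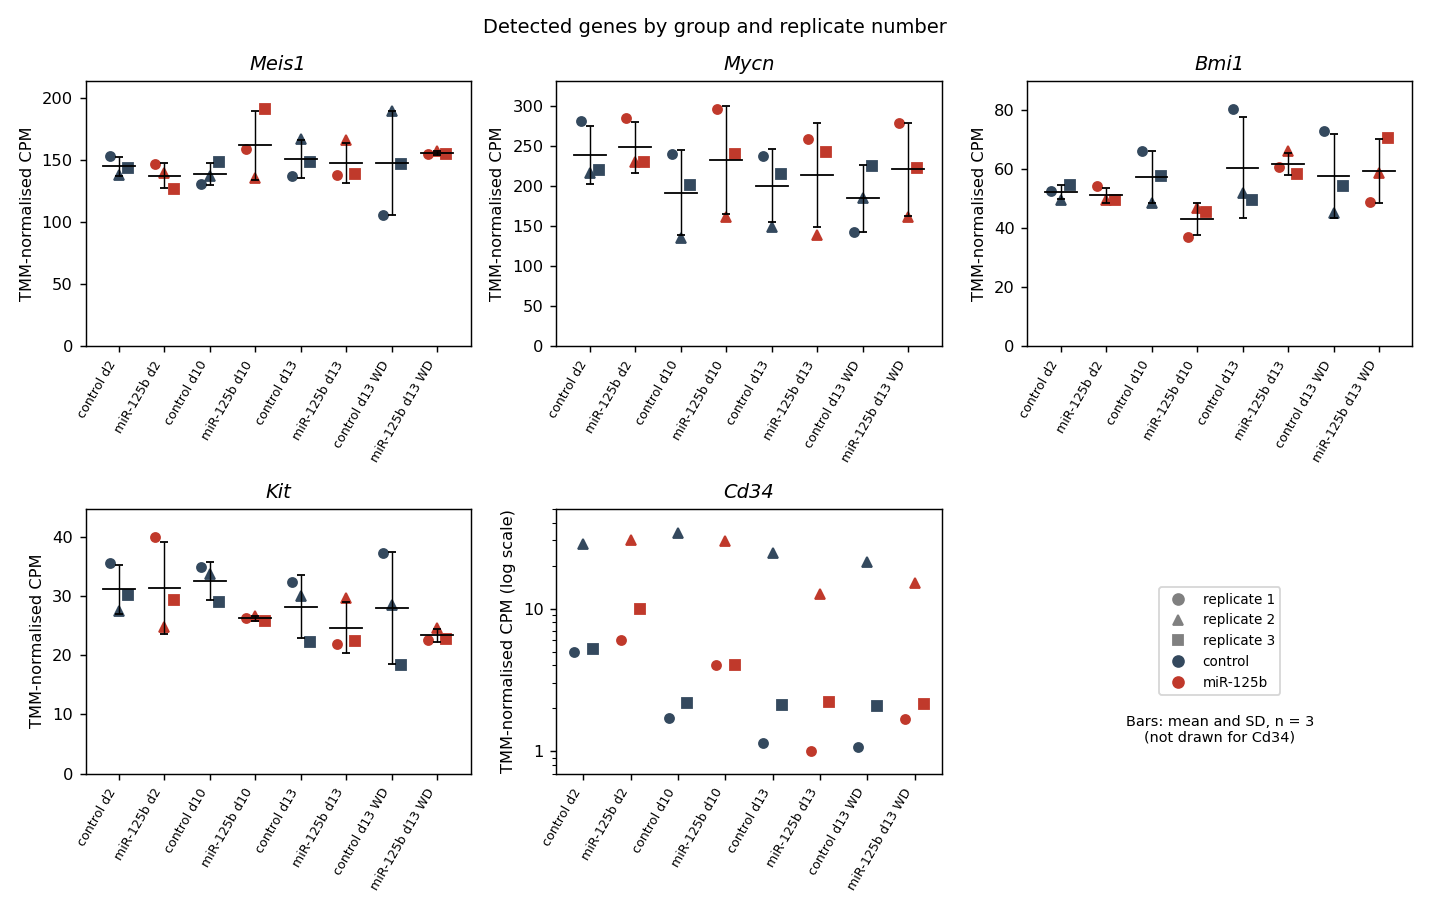
TMM-normalised CPM of the 5 genes read in all libraries, by group (d is day, WD is doxycycline withdrawn), with control in grey, miR-125b in red and the marker shape giving the replicate number; horizontal and vertical bars are the mean and SD of 3 libraries, and the Cd34 axis is logarithmic. Meis1 stays between 106 and 191 CPM, while Cd34 is highest in replicate 2 of every group, at 12.7 to 33.8 CPM against 1.01 to 9.99 CPM in the others.

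Meis1 (ENSMUSG00000020160, chr11:18879817-19018985, minus strand), the TALE cofactor of the posterior Hox proteins, varied least. It ranged from 106 to 191 CPM with a median of 147 CPM, and from 1660 to 3972 counts. Control means were 145 ± 7.83 CPM at day 2, 139 ± 9.06 at day 10, 151 ± 15.1 at day 13 and 148 ± 42.1 after withdrawal (SD, n = 3 each). The miR-125b means in the same order were 138 ± 10.3, 162 ± 27.9, 147 ± 16.1 and 156 ± 1.37 CPM. The arms overlapped at all 4 points.

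The widest Meis1 difference between the arms was at day 10, a log2 fold change of 0.22 ± 0.15 (SE) with a 95% interval of -0.09 to 0.54 and an edgeR adjusted p of 0.488. At the other 3 points its log2 fold change lay between -0.07 and 0.08, with intervals that together ran from -0.39 to 0.39. How reads in the 896 Meis1 exon bases shared with the antisense Gm16140, and in the 1029 shared with Gm37818, were counted is not given.

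Among its TALE relatives, Pbx2 was the steadiest at a median of 91.1 CPM, with Pknox1 at 48.5 and Pbx3 at 16.1 CPM. Meis2 never passed 7 counts, and Pknox2 was at 0 in all libraries. Of the 8 tested TALE partners none was called without the block. With the block, 2 of 8 rose at day 10, against 8.63% of all genes called in either direction, and the median of the list was 0.08 on the log2 scale against 0.01 for all genes. They were Pbx4, with a log2 fold change of 1.27 ± 0.27 (edgeR adjusted p = 0.00757), and Tgif2, a TALE repressor, with 1.11 ± 0.32 (adjusted p = 0.0346). Neither was called at day 2, day 13 or after withdrawal.

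Genes reported downstream of Hoxa9 and Meis1 gave 0 calls of 11 without the block. With it, 3 of 11 rose at day 10, against 8.63% of all genes called in either direction. Cdk6, a kinase that drives entry into the cell cycle, averaged 449.6 ± 90.4 CPM in the miR-125b arm and 258 ± 51.8 CPM in the control arm (SD, n = 3 each), a blocked log2 fold change of 0.80 ± 0.13 (edgeR adjusted p = 0.00174). Erg, an ETS factor of stem cells and megakaryocytes, had 39 to 213 counts per miR-125b library and 2 to 19 per control library, a blocked log2 fold change of 3.93 ± 0.70 (adjusted p = 0.00399). Bcl2, a survival gene, rose by less, 0.38 ± 0.12 (adjusted p = 0.0493). After withdrawal only Erg of the list was called with the block, at 3.47 ± 0.68 (adjusted p = 0.0145), with 52 to 226 counts per miR-125b library and 0 to 16 per control library. There the block called 1.86% of all genes. The median of the list at day 10 was 0.04 with the block, against 0.01 for all genes. Flt3, a receptor often named as a Meis1 target, had 0 to 12 counts per library and was not tested.

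Granulocyte and macrophage markers, summed over 11 genes, were also higher with miR-125b at day 2, day 10 and after withdrawal. The sums at day 10 were 47.3 to 108 CPM in the miR-125b libraries and 25.8 to 37.3 CPM in the control libraries. After withdrawal they were 54.4 to 67.0 and 25.5 to 46.96 CPM. At day 2, where edgeR called no gene, they were 51.0 to 76.7 and 33.3 to 46.1 CPM. At day 13 with doxycycline continued the arms overlapped, at 36.5 to 57.3 and 22.1 to 49.1 CPM. Of the 9 tested, 1 was called without the block at day 10 and after withdrawal, where 0.872% and 0.119% of all genes were called. It was Mpo, the myeloperoxidase of granulocytes, with 251 to 412 counts per miR-125b library against 1 to 18 per control library at day 10 and 245 to 488 against 1 to 5 after withdrawal. Its log2 fold changes were 5.10 ± 0.85 (edgeR adjusted p = 0.0150) and 6.93 ± 0.97 (adjusted p = 0.00435). At day 13 with doxycycline continued, Mpo had 128 to 225 counts per miR-125b library against 1 to 8 per control library. With the block, which called 0.0149% of all genes there, it was called at 5.40 ± 0.68 (adjusted p = 0.00447). At day 10, where the block called 8.63% of all genes, Ctsg, Cebpe and Csf1r were called beside Mpo. They rose by 3.55 ± 0.76, 4.30 ± 1.15 and 2.13 ± 0.59 (adjusted p = 0.00820, 0.0265 and 0.0295), with at most 38, 11 and 37 counts per miR-125b library. After withdrawal the block called Ctsg beside Mpo, at 4.74 ± 0.84 (adjusted p = 0.00777). Of 10 megakaryocyte markers, 3 fell after withdrawal with the block, where 1.86% of all genes were called in either direction. They were Gp9, Gp1bb and Gp1ba, which encode subunits of the platelet von Willebrand factor receptor. They fell by 0.68 ± 0.15, 0.84 ± 0.20 and 0.66 ± 0.16 on the log2 scale (edgeR adjusted p = 0.0255, 0.0331 and 0.0388). At day 10 the block called 8.63% of all genes. There Gp1bb and Gp9 fell by 0.75 ± 0.20 and 0.56 ± 0.15 (adjusted p = 0.0249 and 0.0274), while the platelet chemokine gene Ppbp rose by 1.71 ± 0.42 (adjusted p = 0.0242). The part of these cell types in the values of Erg, Cdk6, Bcl2, Cbx6, Mxd4, Slamf1 and the other called genes was not tested.

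Mycn (ENSMUSG00000037169, chr12:12936093-12941914, minus strand) was the most abundant of the 10, at 135 to 295 CPM. In the miR-125b arm it averaged 248 ± 31.9 CPM at day 2, 232 ± 67.4 at day 10, 213 ± 65.3 at day 13 and 220.4 ± 58.6 after withdrawal (SD, n = 3 each). Control means in the same order were 239 ± 36.4, 191 ± 52.9, 200.2 ± 45.8 and 184 ± 41.4 CPM. The arms overlapped at every point, though miR-125b was the higher in 3 of 3 replicate numbers at day 2 and at day 10. The log2 fold change at day 10 was 0.28 ± 0.28, with an interval of -0.31 to 0.86 (edgeR adjusted p = 0.679), and with the block it was 0.27 ± 0.18, with an interval of -0.11 to 0.66 (adjusted p = 0.364).

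Much of the Mycn spread followed the replicate number. At day 10, replicates 1, 2 and 3 had 295, 161 and 239 CPM with miR-125b and 239, 135 and 201 CPM with the control. Replicate 2 was the lowest of its group in 6 of the 8 groups, the exceptions being miR-125b at day 2 and the control after withdrawal.

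Within the Myc family list, 1 of 9 tested genes was called without the block, after withdrawal, where 0.119% of all genes were called. Mxd4, which encodes an antagonist that competes with Myc proteins for Max, was lower with miR-125b after withdrawal, at 33.03 ± 5.28 CPM against 62.1 ± 12.1 CPM (SD, n = 3 each). Its log2 fold change was -0.91 ± 0.15 (edgeR adjusted p = 0.0145), and with the block -0.92 ± 0.13 (adjusted p = 0.000814). With the block Max also rose after withdrawal, by 0.28 ± 0.07 (adjusted p = 0.0483), and Myc fell at day 10, by 0.47 ± 0.13 on the log2 scale (adjusted p = 0.0261), from 214 ± 40.6 CPM in the control arm to 153 ± 28.4 CPM in the miR-125b arm. The block called 1.86% of all genes after withdrawal and 8.63% at day 10, in either direction.

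Bmi1 (ENSMUSG00000026739, chr2:18677018-18686629, plus strand) gave the lowest unadjusted p of the 5 genes in the miR-125b comparisons. At day 10 the miR-125b libraries had 36.8, 46.7 and 45.5 CPM in replicates 1, 2 and 3, and the control libraries had 66.2, 48.3 and 57.6 CPM. The arms did not overlap, and miR-125b was the lower in 3 of 3 replicate numbers, though by little in replicate 2. The log2 fold change was -0.42 ± 0.18, with a 95% interval of -0.80 to -0.04, an edgeR p of 0.0337 and an adjusted p of 0.237, so it did not pass. With the block it was -0.40 ± 0.17 (adjusted p = 0.155). Arms that did not overlap and were lower with miR-125b were found in 10.5% of all tested genes at day 10.

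The Bmi1 difference was not seen at the other points. Means with miR-125b and control were 51.1 ± 2.68 and 52.3 ± 2.44 CPM at day 2, 61.8 ± 3.86 and 60.5 ± 17.1 CPM at day 13, and 59.5 ± 10.9 and 57.5 ± 14.2 CPM after withdrawal (SD, n = 3 each). The log2 fold changes there lay between -0.03 and 0.05. The difference between the day 10 and day 2 effects was tested as an interaction and called no gene of all 13419 (920 at an unadjusted p under 0.05, and 0 in DESeq2); for Bmi1 it was -0.38 (adjusted p = 0.791).

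Of 19 tested PRC1 partners and PRC1 targets, 1 was called without the block, at day 10, where 0.872% of all genes were called. Cbx6, a chromodomain subunit of PRC1, rose at day 10 to 98.0 ± 17.6 CPM with miR-125b from 46.4 ± 12.04 CPM in the control arm (SD, n = 3 each), a log2 fold change of 1.08 ± 0.21 (edgeR adjusted p = 0.0262). With the block it was also called after withdrawal, where 1.86% of all genes were called, at 0.68 ± 0.17 (adjusted p = 0.0460). At day 10 the block called 8.63% of all genes in either direction. It added 2 smaller calls there, with Scmh1 at 0.38 ± 0.12 (adjusted p = 0.0481) and Phc2 at -0.38 ± 0.11 (adjusted p = 0.0368), both encoding PRC1-associated proteins. The list's median at day 10 was 0.19 without the block, against 0.00 for all genes.

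**Figure D3:**
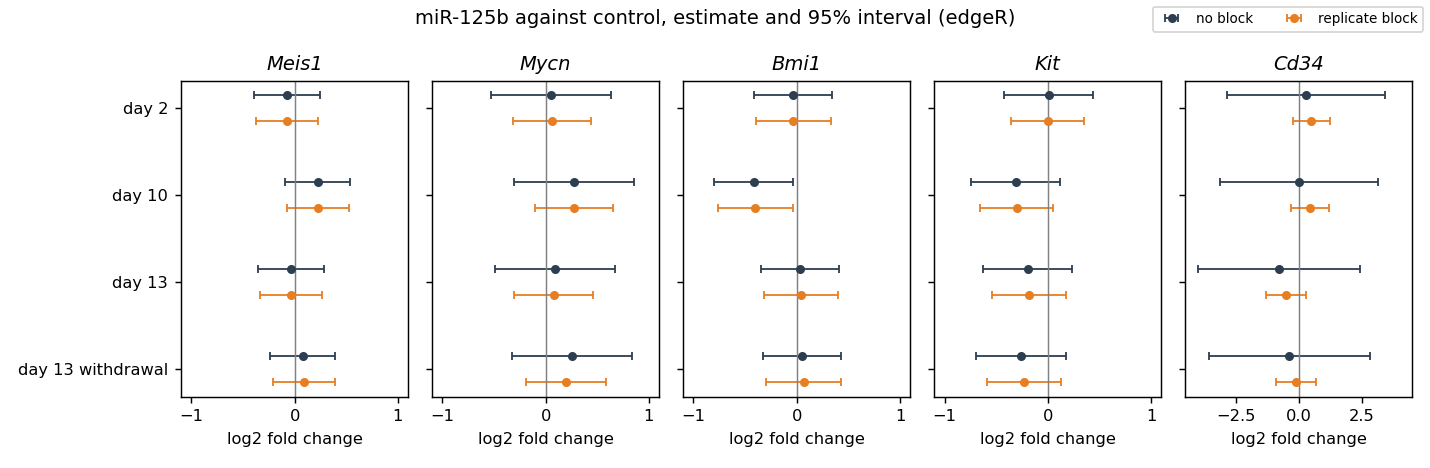
Log2 fold change of miR-125b against control for the 5 tested genes at the 4 sampling points, with 95% intervals from edgeR without (dark) and with (orange) the replicate block; the Cd34 panel has a wider axis. All intervals include 0 except those of Bmi1 at day 10, and the Cd34 intervals narrow with the block.

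Kit (ENSMUSG00000005672, chr5:75574916-75656722, plus strand) ranged from 18.3 to 39.98 CPM. At day 10 the miR-125b libraries had 26.3, 26.7 and 25.8 CPM in replicates 1, 2 and 3, and the control libraries had 34.95, 33.8 and 28.96 CPM. Here too the arms did not overlap and miR-125b was the lower in 3 of 3. The log2 fold change was -0.31 ± 0.21, with an interval of -0.74 to 0.12 (edgeR adjusted p = 0.478), and with the block -0.30 ± 0.17 (adjusted p = 0.278). Bmi1 and Kit were thus 2 of the 5 tested genes in a category that held 10.5% of all tested genes.

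Kit was level at day 2, with 31.4 ± 7.82 CPM against 31.1 ± 4.14 CPM. Its means were 24.7 ± 4.30 against 28.2 ± 5.31 CPM at day 13 and 23.4 ± 1.09 against 28.04 ± 9.50 CPM after withdrawal (miR-125b against control, SD, n = 3 each), with overlapping arms. Kit is also a gene of mast cells. Summed mast cell and basophil markers ran from 372 to 988 CPM in the miR-125b libraries and from 276 to 1067 CPM in the control libraries at day 10. Within that list 2 of 11 genes rose at day 10 with the block, where 8.63% of all genes were called in either direction. Both encode basophil proteases. Prss34 had 141 to 182 counts per miR-125b library and 0 to 24 per control library, and Mcpt8 had 52 to 142 and 0 to 12. Their blocked log2 fold changes were 4.52 ± 0.67 and 3.87 ± 0.78 at day 10 (edgeR adjusted p = 0.00174 and 0.00692), and 5.19 ± 0.72 and 4.91 ± 0.84 after withdrawal (adjusted p = 0.00141 and 0.00829). At day 13 Prss34 was called as well, at 4.74 ± 0.70 (adjusted p = 0.0171). The block called 0.0149% of all genes at day 13 and 1.86% after withdrawal. The part of these cells in the Kit values was not tested.

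The Kit ligand gene Kitl had at most 3 counts in any library. Of 14 tested genes of the Kit pathway none was called without the block. The block called 8.63% of all genes in either direction at day 10 and 1.86% after withdrawal. With it, Socs1, an inhibitor of cytokine signalling, rose at day 10 by 1.03 ± 0.27 on the log2 scale (edgeR adjusted p = 0.0243). Sh2b3, the adaptor Lnk that restrains Kit signalling, fell at day 10 by 0.29 ± 0.08 (adjusted p = 0.0265) and after withdrawal by 0.33 ± 0.08 (adjusted p = 0.0331).

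Cd34 (ENSMUSG00000016494, chr1:194938819-194961279, plus strand) behaved unlike the other 4, in that replicate 2 stood far apart in both arms. Any part of its 7-base seed match in the Cd34 values was not tested. In the control arm replicates 1, 2 and 3 had 4.93, 28.3 and 5.23 CPM at day 2, then 1.70, 33.8 and 2.17 CPM at day 10. They had 1.15, 24.5 and 2.12 CPM at day 13, and 1.08, 21.3 and 2.07 CPM after withdrawal. In the miR-125b arm the 3 replicates had 6.02, 30.3 and 9.99 CPM at day 2, then 4.03, 29.8 and 4.05 CPM at day 10. They had 1.01, 12.7 and 2.21 CPM at day 13, and 1.68, 15.2 and 2.13 CPM after withdrawal. Replicate 2 was the highest in every group, by 3.79 to 17.5 times the mean of the other 2 replicates. Counts ran from 17 to 630 per library. How reads in the 148 Cd34 exon bases shared with the antisense Gm16897 were counted is not given.

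Without the block this spread left the miR-125b effect on Cd34 almost unmeasured, with standard errors of 1.48 to 1.52 on the log2 scale. The block took the standard errors to 0.35 to 0.38. The blocked log2 fold change was 0.49 (interval -0.24 to 1.22) at day 2, 0.45 (-0.30 to 1.19) at day 10, -0.51 (-1.31 to 0.29) at day 13 and -0.12 (-0.91 to 0.68) after withdrawal. The lowest edgeR adjusted p of these 4 was 0.461. With all replicate 2 libraries left out of the fit, which was chosen after Cd34 had been seen to stand apart in them, the day 10 value was 1.06 ± 0.44 (edgeR adjusted p = 0.179) and the others lay between -0.02 and 0.66.

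Cd34 fell from day 2 to day 13 in the miR-125b arm when the replicate number was in the model. Outside replicate 2, a subset chosen after the values were seen, the 4 libraries of day 2, from both arms, had 4.93 to 9.99 CPM. The 4 of day 10 had 1.70 to 4.05 CPM and the 4 of day 13 with continued doxycycline had 1.01 to 2.21 CPM. Replicate 2 at day 2, day 10 and day 13 had 30.3, 29.8 and 12.7 CPM with miR-125b. In the control arm it had 28.3, 33.8 and 24.5 CPM. The comparison of day 13 with day 2 was added after these levels had been seen. In the miR-125b arm Cd34 was lower at day 13 in 3 of 3 replicate numbers, and with the block its log2 fold change was -2.02 ± 0.38 (interval -2.81 to -1.23, edgeR adjusted p = 0.00408), where 9.54% of all genes were called. Without the block the value was -1.55 ± 1.53 (adjusted p = 0.679), with 1.27% of genes called. It ranged from -0.59 without the day 2 replicate 2 library to -3.27 without the day 13 replicate 2 library, with no call. The blocked fit was not repeated without single libraries. Without the replicate 2 libraries it was -2.31 ± 0.45 (adjusted p = 0.0956). The call was made only with the block.

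In the control arm Cd34 was also lower at day 13 in 3 of 3 replicate numbers, with a blocked log2 fold change of -1.02 ± 0.36 (interval -1.78 to -0.27, edgeR adjusted p = 0.203), so it did not pass; 0.887% of genes were called with the block and 0.358% without. Whether the fall differed between the arms was not tested. From day 2 to day 10 the blocked values were -0.69 ± 0.35 with miR-125b (adjusted p = 0.253) and -0.65 ± 0.35 in the control arm (adjusted p = 0.504), with 4.08% and 0.149% of genes called. Summed megakaryocyte markers in the miR-125b arm also ran lower at day 13, from 2818 to 5330 CPM against 4448 to 6208 CPM at day 2, with overlapping ranges. With the block 7 of the 10 fell in that arm, where 9.54% of all genes were called in either direction. Vwf, von Willebrand factor, fell by 1.55 on the log2 scale (edgeR adjusted p = 0.00367). In the control arm the sums were 3328 to 6860 CPM at day 13 against 4234 to 6030 CPM at day 2. No megakaryocyte marker was called there with the block. The part of these markers in the Cd34 values was not tested. In bulk RNA, fewer cells carrying Cd34 and less Cd34 RNA per cell cannot be told apart.

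The other 4 tested genes had no call over time or on withdrawal. From day 2 to day 10 and from day 2 to day 13, in either arm and with or without the block, their adjusted p stayed above 0.05. In the miR-125b arm all 3 day 10 libraries of Bmi1 lay under all 3 of day 2, as they did for 9.98% of tested genes, and all 3 of day 13 lay above them, as for 12.2%. Without the block 0.224% of genes were called from day 2 to day 10 with miR-125b and 0% in the control arm (906 at an unadjusted p under 0.05, and 42 in DESeq2).

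Withdrawal of doxycycline for the last days of culture called 0% of genes in either arm (297 genes with miR-125b and 356 in the control arm at an unadjusted p under 0.05, and 7 and 8 in DESeq2). The log2 fold changes of the 5 genes lay between -0.08 and 0.25 with miR-125b and between -0.17 and -0.01 in the control arm. With the block 0.0522% and 0.00745% of genes were called, none of them among the 10. The interaction of miR-125b with withdrawal called 0% of genes too (226 at an unadjusted p under 0.05, and 0 in DESeq2).

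**Figure D4:**
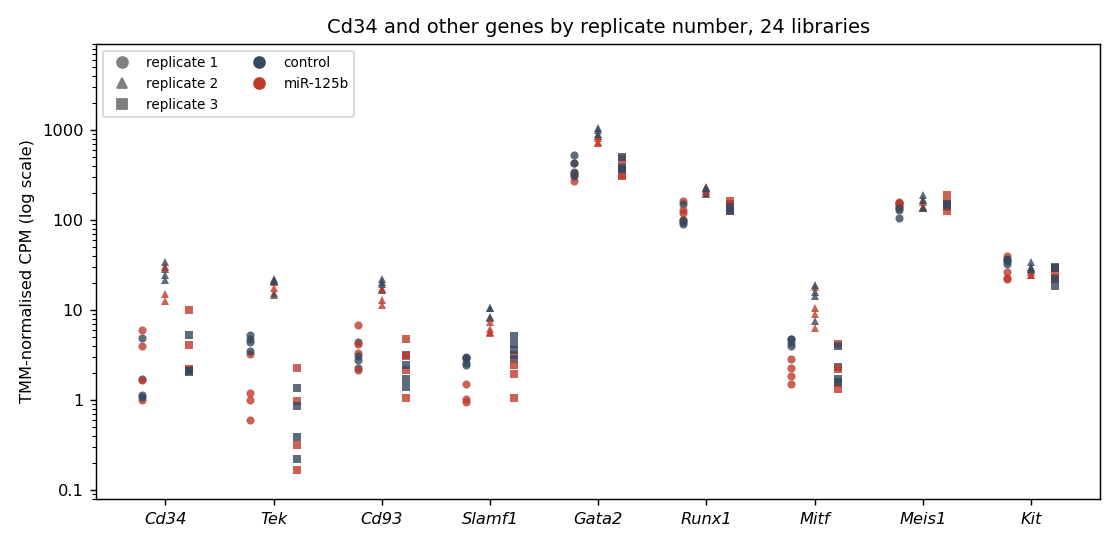
TMM-normalised CPM (logarithmic axis) of Cd34, 6 further genes of the lists and, for comparison, Meis1 and Kit in all 24 libraries, spread by replicate number, with control in grey and miR-125b in red. For Cd34, Tek, Cd93, Slamf1, Gata2, Runx1 and Mitf all 8 replicate 2 libraries lie above the other 16, whereas Meis1 and Kit overlap.

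Cd34 did not stand alone in the replicate 2 libraries. All 8 of them lay above the other 16 for 294 of 13419 tested genes (2.19%), against 50 (0.373%) for replicate 1 and 5 (0.0373%) for replicate 3. Among 137 other tested genes of the lists, 9 did so, among them Cd93, Gata2, Mitf, Pecam1, Runx1, Slamf1, Syk and Tek. Tek, the angiopoietin receptor found on stem cells and endothelium, had 14.8 to 21.9 CPM in replicate 2 and 0.166 to 5.30 CPM elsewhere. Gata2, a stem cell and mast cell factor, had 723 to 1053 CPM and 268 to 522 CPM. Slamf1, the CD150 marker of stem cells and megakaryocytes, had 5.63 to 10.7 CPM and 0.959 to 5.09 CPM. Klf1, Mllt3, Nfix, Pknox1 and Prtn3 were below all 16 others in the 8 libraries, as were 118 of all tested genes (0.879%).

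The markers of other cells in the same libraries are given beside this. The 10 megakaryocyte markers summed to 5191 to 7275 CPM in replicate 2 and 2818 to 6208 CPM in the others, and the erythroid markers to 79.6 to 103 CPM and 120 to 278 CPM. The mast cell and basophil markers summed to 213 to 489 CPM in replicate 2 and 276 to 1353 CPM in the others. The endothelial and stromal markers summed to 177 to 207 CPM in replicate 2 and 167 to 207 CPM in the others, and the endothelial cadherin gene Cdh5 had at most 7 counts in any library. Of the 4 tested genes of that list, 1 lay above in replicate 2. It was Pecam1, at 166 to 196 CPM against 120 to 160 CPM. What the replicate number shares is not given in the labels, and the part of these cell types in the Cd34 values was not tested.

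Of the stem and progenitor surface list, 10 genes were tested beside Kit and Cd34 and none was called without the block. With it Slamf1 fell with miR-125b at day 10, by 0.94 ± 0.29 on the log2 scale (edgeR adjusted p = 0.0488), and after withdrawal, by 1.15 ± 0.29 (adjusted p = 0.0420). At these points the block called 8.63% and 1.86% of all genes in either direction. In the list of stem cell transcription factors 0 of 16 were called in any of the 4 miR-125b comparisons, with or without the block, at a median of -0.12 at day 10 with the block against 0.01 for all genes.

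Across the 24 libraries the genes whose log2 CPM followed each of the 5 most closely were ranked by Pearson's r among 9847 genes, as a description that includes group, depth and replicate number alike. Cd34 was followed by Gnaq (r = 0.967), Furin (0.953) and Fcgr2b (0.952). Bmi1 was followed by Angel2 (0.889), Ccne2 (0.883) and Bzw1 (0.881), and Meis1 by Dgkd (0.884), 3300005D01Rik (0.817) and Insig2 (0.810). Mycn was followed by BC037034 (0.861), B4galt5 (0.852) and Mutyh (0.846), and Kit by Lrrc28 (0.728), Peg10 (0.720) and 2410018L13Rik (0.696). None of the 5 was among the 3 closest to another, and the r between them ran from -0.49 for Cd34 with Bmi1 to 0.25 for Cd34 with Meis1.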

How the data were processed

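RNA-seq counts per gene were used as deposited by the authors, as whole numbers for 24 libraries, with 0 columns left unmatched to a library. The reads had been handled with fastp, HISAT2 2.0.5 and featureCounts on mm10, per the submitters' processing notes. The annotation release, strand setting and any filter are not given in the sources used here. Gene names, coordinates and exon lengths came from GENCODE M21 (GRCm38), which matched 46488 of 47069 identifiers.

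The 10 genes, the gene lists and the tests were chosen with earlier results of these data known. The text names the 10 genes and, from the lists, those called in a miR-125b comparison, up to 4 per list and comparison, and likewise genes apart in replicate 2, which were chosen after their values were seen. Marker genes are given mainly as sums, and some genes of the lists are not reported here.

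Genes were kept by filterByExpr (13419), scaled by TMM and tested in 1 edgeR 4.0.16 quasi-likelihood model of 8 groups (R 4.3.3, 16 residual degrees of freedom, two-sided), with Benjamini-Hochberg adjustment over all tested genes and standard errors derived from the F statistic. The code was tested on simulated data. The 10 contrasts, and the 2 added of day 13 with day 2, were repeated with RLE scaling, DESeq2 1.42.0, other filters, the newer quasi-likelihood estimate, only the groups compared, each library left out and a replicate block. Labels number the replicates 1 to 3 in every group without saying what a number shares. Deviations from group means correlated at over 0.1 in 84 of 84 same-number pairs (0.163 to 0.781, median 0.475; different numbers, median -0.304), so the numbers pair the libraries. No 2 libraries of a group agreed within sampling noise.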

Additional observations from a re-analysis of the deposited data

How the results depend on the processing

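In 180 combinations of comparison and alternative setting, a gene of the 10 was called in 1, which was Cd34 from day 2 to day 13 in the miR-125b arm with the replicate block (1 gene against 0 without it). The pairing block changed no other call among them, and leaving out any single library gave 0 called genes of the 10 in each comparison. Of 336 fold changes under an alternative, 293 kept their direction and side of the threshold, 1 passed and 42 changed sign, none of them called. With the block Kit at day 2 was -0.00043. Without the 8 replicate 2 libraries, Bmi1 was -0.12 at day 13 and -0.084 after withdrawal, and Cd34 after withdrawal was 0.26. With the newer quasi-likelihood estimate Cd34 from day 2 to day 10 in the control arm was 0.011. Leaving out single libraries gave log2 ranges that crossed 0 at day 2 for Mycn (-0.056 to 0.18), Kit (-0.21 to 0.16) and Cd34 (-0.68 to 1.61), and at day 10 for Cd34 (-1.64 to 2.71). At day 13 they did so for Meis1 (-0.13 to 0.044), Mycn (-0.081 to 0.33), Bmi1 (-0.10 to 0.29) and Cd34 (-2.52 to 1.70), and after withdrawal for Meis1 (-0.11 to 0.30), Bmi1 (-0.10 to 0.26) and Cd34 (-2.10 to 1.98). Cd34 from day 2 to day 10 ranged from -1.94 to 0.66 with miR-125b and from -2.72 to 1.30 in the control arm, and from day 2 to day 13 in the control arm from -2.97 to 0.86. Without crossing 0, Mycn at day 10 ranged from 0.063 (without miR-125b replicate 1) to 0.48 (without miR-125b replicate 2), and Meis1 at day 10 from 0.086 (without miR-125b replicate 3) to 0.33 (without miR-125b replicate 2). The count over all genes moved more. At day 10 it was 117, against 516 in DESeq2, 65 without a filter, 1158 with the block, 0 with only the groups compared, 658 without replicate 2 and 1 to 799 without single libraries. After withdrawal it was 16, against 95, 10, 249, 0 and 3 in the same order and 5 to 15 without single libraries, and 31 with the newer estimate. From day 2 to day 10 with miR-125b it was 30, against 301, 18, 547, 4 and 0, 4 to 241 without single libraries, and 66 with the newer estimate. From day 2 to day 13 it was 170 with miR-125b, against 600, 86, 1280, 6 and 2, and 0 to 63 without single libraries. In the control arm it was 48, against 127 in DESeq2, 119 with the block, 2 with only the groups compared, 3 without replicate 2 and 8 to 63 without single libraries. The causes were not tested. Depth limits Hoxa7, Hoxa9, Hoxa10, Hlf and Mecom, which were at most 4 counts, and Cd34 at 17 to 35 counts in its lowest libraries.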
